A study of Danio rerio with 4 samples.

Results

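The miR-181 family was followed in small RNA libraries of neural crest cells (NCC) and of the remaining cells (non-NCC) of zebrafish embryos. Its members here are 4 of the 372 miRNAs in the deposited tables, chosen by name: dre-miR-181a-5p, dre-miR-181b-5p, dre-miR-181c-5p and dre-miR-181a-3p (the prefix, for Danio rerio, is left out from here on). A further 9 rows of the tables carry the name miR-181, and their values are given where they bear on the members. All embryos carried Tg(sox10:eGFP,mRFP), in which the sox10 promoter drives a green and a red fluorescent protein in neural crest. Cells with GFP were sorted as NCC, and cells without it as non-NCC, from embryos of 16 hours post-fertilization (hpf), when the study describes the crest as premigratory, and of 28 hpf. The GFP-negative gate holds every other tissue of the embryo, and sox10 reporters also label some cells outside the crest, such as those of the otic vesicle. Each of the 4 groups is 1 library, so that the spread between sorts, or between batches of embryos, was not measured for any value below.

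A miRNA gene is transcribed into a hairpin precursor, from which the 5′ side (5p) and the 3′ side (3p) can each give a mature strand of about the same length. One strand is loaded into Argonaute and pairs with messenger RNAs through its seed, the bases near the 5′ end, and the other strand is usually degraded. miR-181a, miR-181b and miR-181c share their 5p seed and differ in a few bases outside it, so that they are predicted to recognize largely the same targets. In vertebrates the family is known for high levels in the developing brain and retina, where in medaka it acts in axon growth, and in the thymus, where in the mouse it sets the sensitivity of maturing T cells. The gene table of the GRCz12tu assembly holds 10 miR-181 precursor genes in 5 pairs of direct neighbours. These pairs are mir181b-3 with mir181a-1, mir181a-2 with mir181b-2, mir181a-3 with mir181c, mir181d with mir181a-4, and mir181b-1 with mir181a-5. By their symbols, 5 of these genes encode miR-181a, 3 encode miR-181b and 1 encodes miR-181c. The 3p arms of the mir181a genes have rows of their own, numbered by gene, and the row without a number, miR-181a-3p, was taken as that of mir181a-1, the one left by the numbered rows.

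The libraries differed widely in depth. The NCC libraries held 2340716 (16 hpf) and 6502 (28 hpf) recovered reads, and the non-NCC libraries 140132389 and 1099312. In the 28-hpf NCC library, a miRNA with no read may have made up as much as 0.0461% of the library (3 reads). The miR-430 family, which clears maternal messenger RNA, took at least 66.7% of the reads of each library. The tables hold miRNAs only, so that messenger RNA markers of the crest were not measured. Among miRNAs of other tissues, those of neural cells (miR-9 and miR-124, 8 rows) summed to 0.0195% of NCC and 0.0425% of non-NCC reads at 16 hpf, and to 0.323% and 0.454% at 28 hpf, where 7 of the 8 rows were at 0 in NCC. Other neural miRNAs, outside this list, differed in direction. At 28 hpf, miR-219-5p had 9 NCC and 180 non-NCC reads (ratio of normalized counts 6.50), miR-128-3p 3 and 7 (55.7), and miR-137-5p 2 and 0. There, miR-219-3p and miR-128-5p had 3 and 2 non-NCC reads and none in NCC. At 16 hpf, the ratio of miR-219-5p was 0.0233. The miRNAs of epidermis (miR-203 and miR-205, 6 rows) summed to 0.0463% and 0.0485% at 16 hpf. At 28 hpf, they summed to 1.05% of NCC and 0.148% of non-NCC reads, with 5 of the 6 rows at 0 in NCC. This NCC sum was miR-205-5p alone (68 reads, ratio of normalized counts 6.29), and miR-203b-3p had 0 NCC and 182 non-NCC reads. At 16 hpf, the ratio was 0.998 for miR-205-5p, 0.170 for miR-203a-3p and 0.187 for miR-203b-3p, and the other 3 rows were at 0 in NCC. The muscle list (miR-1, miR-206 and miR-133a, 6 rows) summed to 0.00350% of NCC and 0.00265% of non-NCC reads at 16 hpf. At 28 hpf, its sums were 0.0308% and 0.0709%. Those of the blood list (miR-451 and miR-144, 3 rows) were 0.00192% and 0.00400%, then 0 and 0.0111%. At 16 hpf, the ratio of normalized counts was 5.66 for miR-133a-3p but 0.368 for miR-206-3p, and 8.43 for miR-451 but 0.0226 for miR-144-5p. At that stage, miR-133b-3p and miR-133c-3p, outside the list, had 618 and 445 non-NCC reads and none in NCC. Their part in the miR-181 values was not tested.

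miR-181a-5p was the most abundant miR-181 strand in each library. At 16 hpf, 7157 reads of NCC and 426552 of non-NCC were miR-181a-5p, which made up 0.306% (95% Clopper-Pearson interval 0.299 to 0.313) and 0.304% (0.303 to 0.305) of the library. At 28 hpf it had 515 and 91742 reads, or 7.92% (7.28 to 8.60) and 8.35% (8.294 to 8.397). Counted from the most abundant row, it held rank 10 in NCC and rank 9 in non-NCC at 16 hpf, and rank 4 in both at 28 hpf. Outside the miR-430 family, only 1 row was above it at 28 hpf. These intervals, as all those below, cover the counting error of reads only, and not the spread between libraries. Amplified reads that carry no molecular identifier do not each stand for 1 molecule, so that the counting error of molecules can be larger.

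miR-181b-5p came next among the members. At 16 hpf, 2492 NCC reads and 98812 non-NCC reads were counted, 0.106% (0.102 to 0.111) and 0.0705% (0.0701 to 0.0710) of the library. At 28 hpf it had 111 and 12861 reads, 1.71% (1.41 to 2.05) and 1.17% (1.15 to 1.19). At both stages, its share of the reads was therefore larger in NCC than in non-NCC, with intervals that did not overlap. miR-181c-5p was scarce, with 91 (16 hpf) and 1 (28 hpf) reads in the NCC libraries and 2480 and 997 in the non-NCC libraries. Its share was the larger in NCC at 16 hpf, 0.00389% (0.00313 to 0.00477) against 0.00177% (0.00170 to 0.00184). At 28 hpf, the order of the 2 shares was the opposite, 0.0154% (0.000389 to 0.0857) against 0.0907% (0.0852 to 0.0965), and the NCC interval, from its 1 read, reached into that of non-NCC. miR-181a-3p, taken as the opposite strand of the mir181a-1 hairpin, had 124 and 0 reads in NCC of 16 and 28 hpf, and 19341 and 456 in non-NCC.

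**Figure D1:**
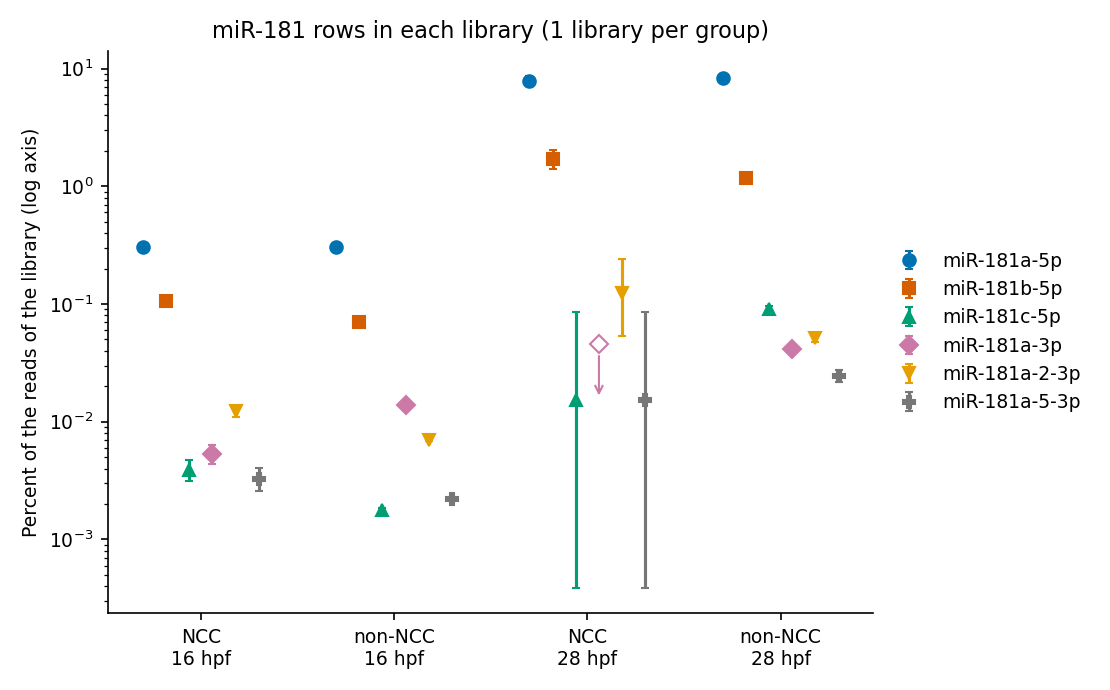
Percent of the reads of each library (log axis) taken by the 4 miR-181 members and by the 3p arms miR-181a-2-3p and miR-181a-5-3p, in the NCC and non-NCC libraries of 16 and 28 hpf. Points are single libraries, bars are 95% Clopper-Pearson intervals, and the open symbol with an arrow is the share that 3 reads would have for miR-181a-3p, which had no read in NCC at 28 hpf. miR-181a-5p lies near 0.3% in both libraries of 16 hpf and near 8% in both libraries of 28 hpf.

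Summed, the 4 members took 0.421% (0.413 to 0.430) of the library of 16-hpf NCC and 0.390% (0.389 to 0.392) of that of 16-hpf non-NCC. At 28 hpf, their share was 9.64% (8.94 to 10.4) in NCC beside 9.65% (9.59 to 9.70) in the other cells. The summed share at 28 hpf was 22.9 times that at 16 hpf in NCC and 24.7 times in non-NCC. With the miR-430 reads left out of the totals, the summed shares were 5.26% and 4.73% at 16 hpf and 35.5% and 28.9% at 28 hpf, and the increase was 6.75-fold in NCC and 6.12-fold in non-NCC. Shares set across stages are a description of these libraries, because each group is 1 library. The miR-430 family took 92.0% (NCC) and 91.7% (non-NCC) of the reads at 16 hpf, and 72.8% and 66.7% at 28 hpf. miR-181a-5p made up 72.6% (16 hpf) and 82.1% (28 hpf) of the members' reads in NCC, beside 78.0% and 86.5% among the other cells. miR-181b-5p made up 25.3% and 17.7% in NCC, and 18.1% and 12.1% in non-NCC. The remainder, miR-181c-5p and miR-181a-3p together, was a small part of the members' reads in each library.

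The ratio of a pair of strands within a library does not depend on how the libraries are scaled. Between libraries, 9 such balances were compared for each pair of libraries, and their intervals were not adjusted for that number. The read ratio of miR-181a-5p to miR-181b-5p was 2.87 (95% interval 2.74 to 3.01) in NCC and 4.32 (4.29 to 4.35) in non-NCC at 16 hpf, and 4.64 (3.77 to 5.75) and 7.13 (7.003 to 7.267) at 28 hpf. Relative to miR-181a-5p, miR-181b-5p was thus 1.503 times (exact conditional 95% interval 1.43 to 1.57) as abundant in NCC as in non-NCC at 16 hpf. At 28 hpf, this factor was 1.54 (1.24 to 1.89), and its interval held the value of 16 hpf. Between 16 and 28 hpf, the same balance moved toward miR-181a-5p in both populations, and the interval for NCC held that for non-NCC. The ratio of miR-181b-5p to miR-181a-5p at 28 hpf was 0.619 times (0.497 to 0.765) that of 16 hpf in NCC and 0.605 times (0.593 to 0.617) in non-NCC.

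For miR-181c-5p, the estimates lay on opposite sides of an equal balance at 16 and 28 hpf, the latter from 1 NCC read. Relative to miR-181a-5p, it was 2.19 times (1.75 to 2.70) as abundant in NCC as in non-NCC at 16 hpf. At 28 hpf, the factor was 0.179 (0.00451 to 1.002), from 1 NCC read, and a difference was not detectable at this depth. Relative to miR-181b-5p, the factor was 1.45 (1.16 to 1.80) at 16 hpf and 0.116 (0.00291 to 0.663) at 28 hpf. The latter interval lay below an equal balance. It rests on 1 NCC read and was not adjusted for the number of balances compared. In non-NCC, where reads were ample, miR-181c-5p gained on both other 5p strands from 16 to 28 hpf, by 1.87 times (1.73 to 2.01) relative to miR-181a-5p and by 3.09 times (2.86 to 3.33) relative to miR-181b-5p. In NCC, the change relative to miR-181a-5p was in the opposite direction, 0.153 times (0.00382 to 0.877), from 1 read at 28 hpf. Relative to miR-181b-5p, it was 0.247 times (0.00612 to 1.44) in NCC, and a change was not detectable at this depth.

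**Figure D2:**
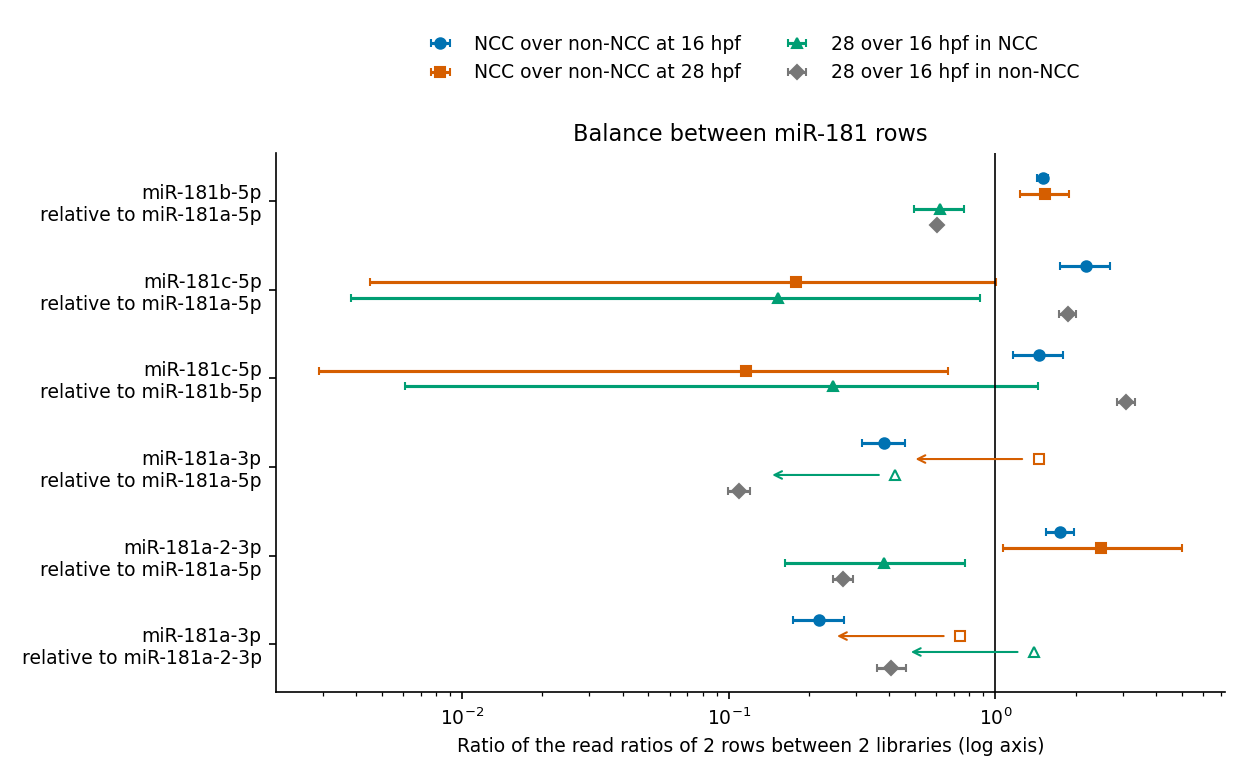
Ratio of the read ratios of a pair of miR-181 rows between libraries (log axis), for NCC over non-NCC at each stage and for 28 over 16 hpf in each population. Points are estimates from single libraries, bars are exact conditional 95% intervals, and open symbols with an arrow mark the upper end of the interval where miR-181a-3p had no read in NCC at 28 hpf. The values for miR-181b-5p relative to miR-181a-5p lie at 1.503 and 1.54 for the populations and at 0.619 and 0.605 for the stages.

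The comparison of NCC with non-NCC at 16 hpf asks which miRNAs are enriched in the crest before it migrates. On the deposited scale, in which the libraries of a stage are divided by size factors, the level of miR-181a-5p was 55252 normalized counts for NCC and the same for non-NCC, a ratio of 1 (95% interval 0.977 to 1.02). This equality follows from the scale. Size factors of this kind set the median ratio of the miRNAs with reads in both libraries to 1, and of the 225 such miRNAs at 16 hpf, 112 had a higher ratio than miR-181a-5p and 112 a lower one. Every ratio at 16 hpf is therefore relative to miR-181a-5p. At 28 hpf, the same place was taken by miR-25-3p, with 19 NCC reads, in the middle of 49 miRNAs.

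The level of miR-181b-5p at 16 hpf reached 19238 normalized counts in NCC beside 12799 in non-NCC, and it was 1.503-fold (1.44 to 1.56) higher in NCC (exact binomial test, adjusted p = 2.86e-78). miR-181c-5p had 703 and 321 normalized counts and was 2.19-fold (1.75 to 2.70) higher in NCC (exact binomial test, adjusted p = 3.51e-10). miR-181a-3p had 957 and 2505 normalized counts, and its ratio was 0.382 (0.318 to 0.456), or 2.62-fold lower in NCC (exact binomial test, adjusted p = 2.11e-35). Members of the family were thus found on either side of an equal level. These tests compare the libraries and not the populations, with Benjamini-Hochberg adjustment over the 340 miRNAs with reads at this stage.

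Of the 4 members, 1 (miR-181c-5p) was more than 2-fold higher in NCC and 1 (miR-181a-3p) was past 2-fold toward non-NCC, beside 26.7% and 25.3% of the 225 miRNAs that both libraries held. In the exact binomial test, 2 members were higher in NCC and 1 in non-NCC, against 14.7% and 17.9% of the 340 miRNAs tested. The median ratio of the members was 1.25, beside 1 over all 225 miRNAs, a value that the scale sets. With TMM factors (a trimmed mean of the log ratios), miR-181c-5p was 1.87-fold higher in NCC and no longer past 2-fold. Among miR-181 rows outside the members, miR-181a-2-3p (290 and 9860 reads) was 1.75-fold (1.55 to 1.97) higher in NCC (exact binomial test, adjusted p = 3.38e-17). miR-181a-5-3p (76 and 3105 reads) was 1.46-fold (1.15 to 1.83) higher (exact binomial test, adjusted p = 0.00746).

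**Figure D3:**
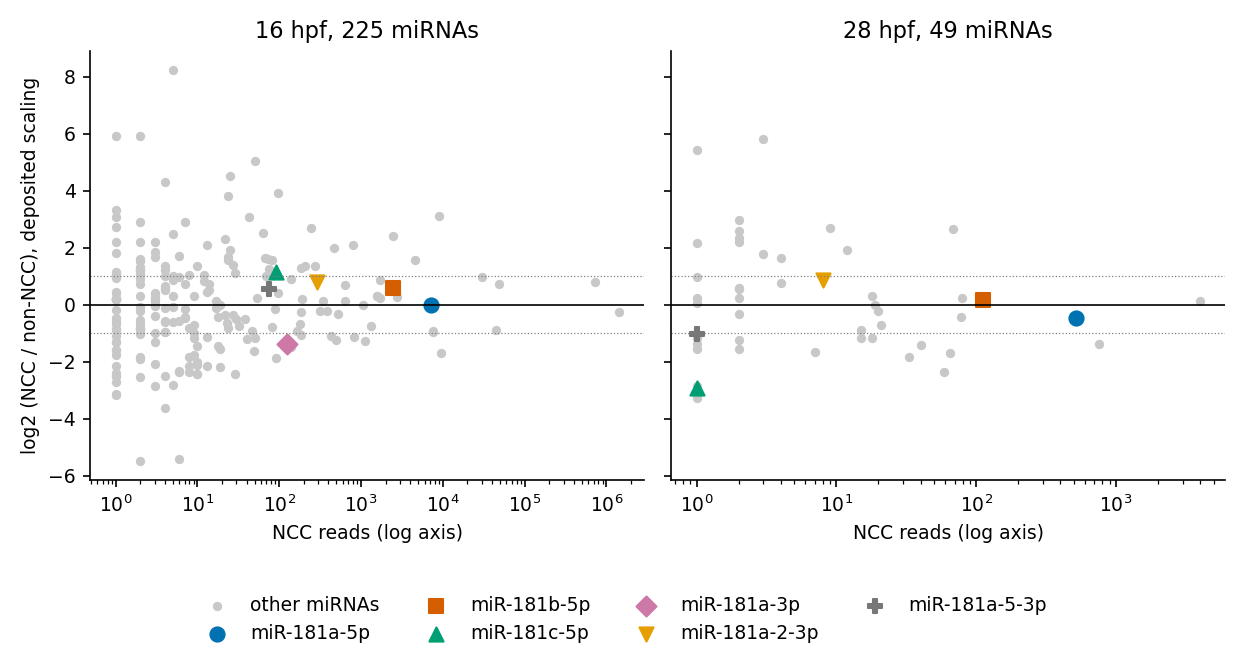
log2 ratio of NCC over non-NCC on the deposited scale against the number of NCC reads (log axis), for the 225 miRNAs of 16 hpf and the 49 miRNAs of 28 hpf with reads in both libraries. Gray points are other miRNAs, colored symbols are miR-181 rows, and dotted lines mark 2-fold. At 16 hpf miR-181a-5p lies at 0.00, miR-181b-5p at 0.59, miR-181c-5p at 1.13 and miR-181a-3p at -1.39.

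At 28 hpf, 3 of the 4 members had reads in both libraries. The level of miR-181a-5p reached 5873 normalized counts in NCC beside 8045 in non-NCC, a ratio of 0.730 (0.668 to 0.796; exact binomial test, adjusted p = 2.52e-12), so that it was 1.37-fold lower in NCC on this scale. miR-181b-5p had 1266 and 1128 normalized counts, a ratio of 1.12 (0.923 to 1.35; exact binomial test, adjusted p = 1). miR-181c-5p had 11.4 and 87.4 normalized counts, a ratio of 0.130 (0.00330 to 0.728), and did not pass the adjustment (exact binomial test, adjusted p = 0.106). An equal level would have given 7.67 NCC reads of miR-181c-5p, where 1 was counted.

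miR-181a-3p was at 0 in NCC and had 456 reads in non-NCC at 28 hpf, where an equal level would have given 3.51 NCC reads. The upper end of its interval was a ratio of 1.056, so that a lower level in NCC could not be detected with these reads (adjusted p = 0.460, exact binomial test). Of the 3 members with reads in both libraries, 0 were past 2-fold toward NCC and 1 was past 2-fold toward non-NCC, beside 24.5% and 34.7% of 49 miRNAs. In the exact binomial test, 0 of the 4 members were higher in NCC and 1 was higher in non-NCC, beside 2.93% and 5.02% of the 239 miRNAs with reads at this stage. The median ratio of the 3 members was 0.730, that of miR-181a-5p, beside 1 over the 49 miRNAs, a value that the scale sets.

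The ratios at 28 hpf depended on the scaling far more than those at 16 hpf. A change of scale multiplies every ratio of a stage by the same factor. Against the deposited size factors, the factor was between 0.855 (TMM) and 1.03 (totals without miR-430) at 16 hpf. At 28 hpf it was between 0.980 (median ratio without the miR-181 rows) and 1.59 (totals without miR-430). The 28-hpf ratio of miR-181a-5p was 0.949 with library totals, 0.971 with TMM factors, 1.05 with the median taken over the 20 miRNAs that reached 10 reads on both sides, and 1.16 with totals without miR-430, where it passed the test as higher in NCC (exact binomial test, adjusted p = 0.0125). Its side of an equal level was therefore set by the scaling. The 28-hpf ratio of miR-181b-5p lay above 1 in each of the 6 scalings, from 1.10 to 1.79. It passed the exact binomial test in 4 of them, with adjusted p-values from 8.51e-07 to 0.00330.

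At 16 hpf, the ratios of miR-181b-5p lay between 1.29 and 1.56, those of miR-181c-5p between 1.87 and 2.26, and those of miR-181a-3p between 0.327 and 0.395 over the 6 scalings, and each passed the exact binomial test in all of them. The ratio of miR-181a-5p at this stage lay between 0.855 (TMM) and 1.03, and the sign of its departure from 1 differed between scalings. miR-181c-5p at 28 hpf lay between 0.128 and 0.208, and passed the test in none of the 6.

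**Figure D4:**
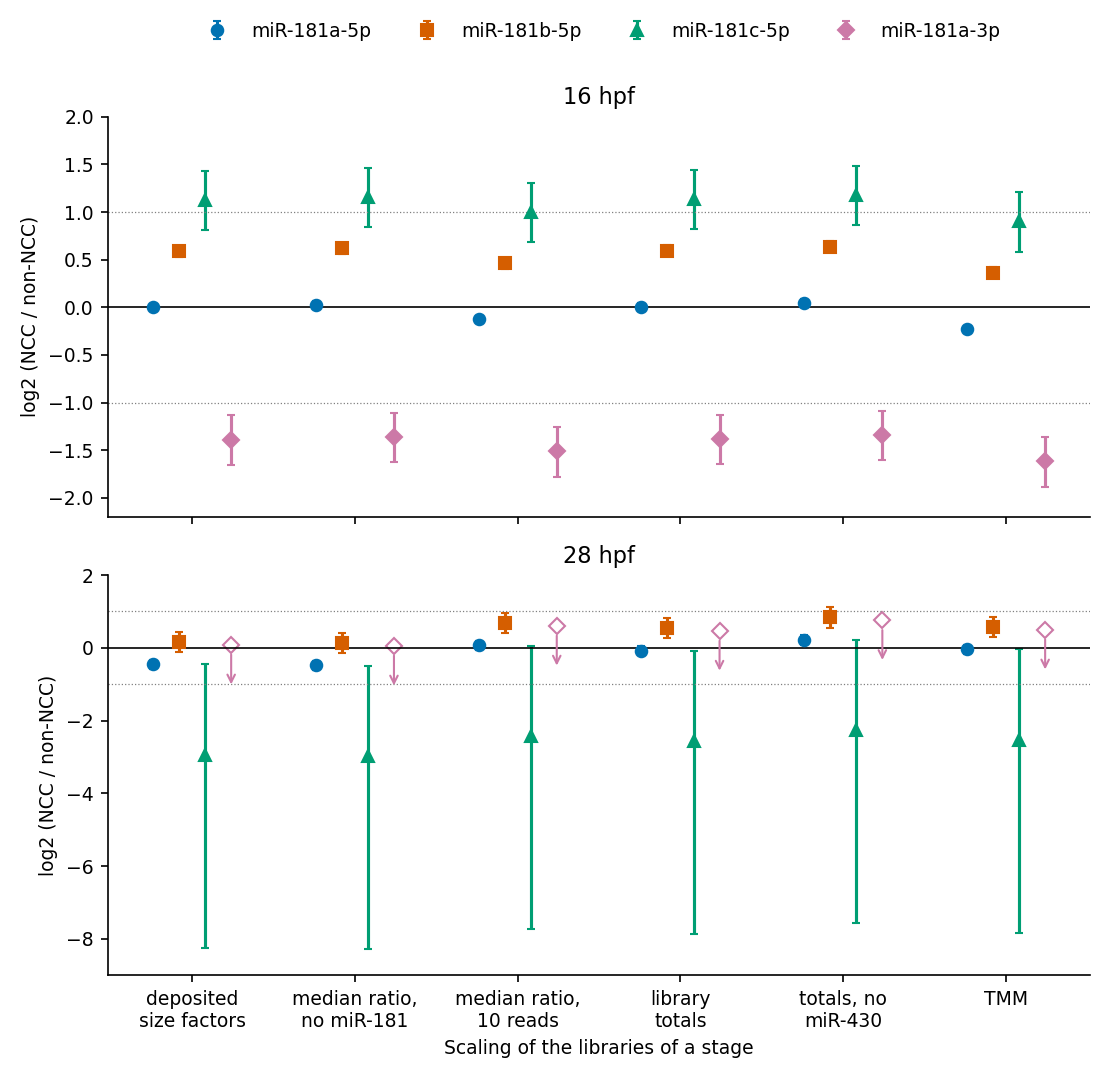
log2 ratio of NCC over non-NCC of the 4 miR-181 members at 16 hpf (top) and 28 hpf (bottom) under 6 scalings of the libraries. Points are estimates from single libraries, bars are 95% Clopper-Pearson intervals, open symbols with an arrow mark the upper end of the interval for miR-181a-3p without NCC reads, and dotted lines mark 2-fold. A scaling shifts all members of a stage by the same amount, so that their order cannot change. The 28-hpf value of miR-181a-5p moves from -0.48 to 0.22.

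The 3p arms of the mir181a genes, whose rows are named by gene, divided differently in the NCC and non-NCC libraries. Whether the sequence of each row comes from a single gene was not checked. In NCC at 16 hpf, miR-181a-2-3p had 290 of the 492 reads of the 5 rows (58.9%, 95% interval 54.5 to 63.3). miR-181a-3p, taken as that of mir181a-1, had 124 (25.2%, 21.4 to 29.3). In non-NCC the order was the opposite, with 59.8% (59.2 to 60.3) for miR-181a-3p and 30.5% (30.0 to 31.0) for miR-181a-2-3p. Relative to miR-181a-2-3p, miR-181a-3p was 4.59 times (3.70 to 5.72) as abundant in non-NCC as in NCC. Relative to miR-181a-5-3p, the factor was 3.82 (2.82 to 5.13). Between miR-181a-5-3p and miR-181a-2-3p, a difference in balance was not detectable (0.832, 0.636 to 1.08).

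At 28 hpf, the NCC library held 9 reads of these rows, 8 of miR-181a-2-3p and 1 of miR-181a-5-3p. In non-NCC, miR-181a-2-3p had 570 reads (43.7%, 41.0 to 46.5), miR-181a-3p 456 (35.0%, 32.4 to 37.7) and miR-181a-5-3p 269 (20.6%, 18.5 to 22.9). The interval for miR-181a-3p relative to miR-181a-2-3p in NCC over non-NCC ran from 0 to 0.737, below an equal balance. It rests on 0 and 8 NCC reads and was not adjusted for the 9 balances compared at this stage. A repeat of the 16-hpf difference is therefore not established. Relative to miR-181a-5p, the interval for miR-181a-3p ran from 0 to 1.45. In non-NCC, miR-181a-3p went from 1.96 (1.91 to 2.01) reads per read of miR-181a-2-3p at 16 hpf to 0.800 (0.706 to 0.906) at 28 hpf. The exact binomial test on single rows did not call miR-181a-2-3p at 28 hpf, with a ratio of 1.83 (0.784 to 3.62) and an adjusted p of 0.637.

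**Figure D5:**
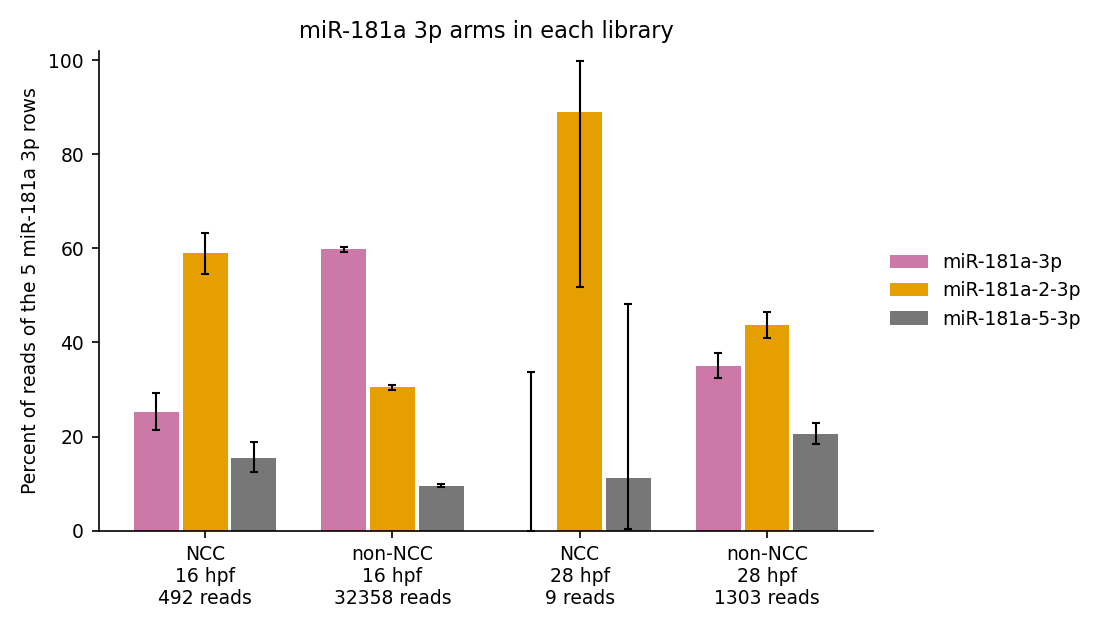
Percent of the reads of the 5 miR-181a 3p rows taken by miR-181a-3p, miR-181a-2-3p and miR-181a-5-3p in each library. Bars are single libraries with 95% Clopper-Pearson intervals, and the read totals of the 5 rows stand under each library. miR-181a-2-3p leads in NCC at 16 hpf (58.9%) and miR-181a-3p leads in non-NCC (59.8%).

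For miR-181a, the 5p strand prevailed over the 3p strands in every library, and more so at the later stage. miR-181a-5p had 14.5 (13.3 to 16.0) reads per read of the 5 miR-181a 3p rows in 16-hpf NCC and 13.2 (13.03 to 13.33) in 16-hpf non-NCC. At the later stage the values were 57.2 (29.9 to 126) and 70.4 (66.7 to 74.4). For miR-181a-3p alone, the non-NCC values went from 22.1 (21.7 to 22.4) to 201 (184 to 221) reads of miR-181a-5p per read of miR-181a-3p. The NCC value was 57.7 (48.3 to 69.5) at 16 hpf, and at 28 hpf, with no read of miR-181a-3p, the interval began at 139 and had no upper end. Relative to miR-181a-5p, miR-181a-3p at 28 hpf was 0.110 times (0.0997 to 0.120) its level of 16 hpf in non-NCC, and in NCC the interval ran from 0 to 0.421. Between the populations at 16 hpf, miR-181a-3p relative to miR-181a-5p was 0.382 times (0.317 to 0.457) as abundant in NCC as in non-NCC. For the summed 3p rows, the intervals of NCC and non-NCC overlapped at their ends. The difference between these summed ratios was not tested, and the overlap does not show an equal balance.

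The remaining miR-181 rows were near the limit of detection. miR-181c-3p, the opposite strand of miR-181c-5p, had 54 reads in non-NCC at 16 hpf and 25 at 28 hpf, and none in NCC. In non-NCC, miR-181c-5p had 45.9 (35.1 to 61.3) reads per read of miR-181c-3p at 16 hpf. At 28 hpf the value was 39.9 (26.9 to 61.9), and so not higher, unlike that of miR-181a. miR-181a-3-3p, from the neighbour of mir181c, had 2 reads in 16-hpf NCC and 50 in 16-hpf non-NCC (ratio 2.38, 0.281 to 9.07), and later 0 and 7. miR-181b-3p had 24 reads in non-NCC at 16 hpf and none elsewhere. From the pair mir181d and mir181a-4, miR-181d-5p had 5 reads in non-NCC at 16 hpf, and miR-181a-4-3p had 2 there and 1 in non-NCC at 28 hpf. miR-181d-3p and miR-181b-3-3p had no reads in any library. For the 4 rows with reads in non-NCC alone at 16 hpf, an equal level would have given at most 0.906 NCC reads, so that a lower level in NCC was not detectable at this depth.

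The NCC to non-NCC ratio was compared between stages by an exact conditional test of the 4 read counts, adjusted over 189 miRNAs, of which 14.8% were called. The test takes the size factors as known, so that its intervals and p-values leave out the error of the scale. On the deposited scale, the ratio at 28 hpf was 0.730 times (0.666 to 0.799) that at 16 hpf for miR-181a-5p (adjusted p = 1.56e-11, exact conditional test). It was 0.747 times (0.611 to 0.904) for miR-181b-5p (adjusted p = 0.0142, exact conditional test) and 0.0596 times (0.00149 to 0.342) for miR-181c-5p (adjusted p = 7.80e-05, exact conditional test). With library totals, the first 2 of these factors were 0.945 and 0.966 and did not pass the test, and with TMM factors they were 1.14 (adjusted p = 0.0424, exact conditional test) and 1.16 (adjusted p = 0.664, exact conditional test), in the opposite direction. That of miR-181c-5p remained between 0.0573 and 0.0931 over the 6 scalings, with adjusted p-values of at most 0.00800 (exact conditional test). It rests on 1 NCC read at 28 hpf, beside 91 at 16 hpf. For miR-181a-3p, the reads were too few for a change to be detectable (upper end of the interval 2.81; adjusted p = 1, exact conditional test).

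The other miRNAs whose shares over the 4 libraries lay closest to those of miR-181a-5p were sought among the 18 with at least 10 reads in every library. Likeness was measured as the Euclidean distance between log2 shares of the reads, centred on the mean of the 4 libraries. miR-181b-5p, at a distance of 0.931, was closer to miR-181a-5p than any of them. miR-10d-5p followed at 1.24, miR-9-5p at 1.27 and miR-92b-3p at 2.35, beside a median of 3.07 over the 18. The same 3 miRNAs were closest to miR-181b-5p, at 0.990, 1.38 and 1.94. miR-10d-5p, from a Hox cluster, took 0.0570% (16 hpf) and 1.22% (28 hpf) of the reads in NCC, and 0.0952% and 0.788% in non-NCC. miR-9-5p, a miRNA of neural progenitors, took 0.0182% and 0.323% in NCC, and 0.0393% and 0.405% in non-NCC. With 4 libraries of 1 replicate each, these distances are a description.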

How the data were processed

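Small RNA libraries (TruSeq, Illumina NextSeq) of 4 sorted populations, 1 per group, were analysed. The methods of the study name TRIzol extraction and paired-end reads, whereas the labels name miRNeasy and single-end reads. The authors aligned the reads with Bowtie to GRCz11, counted them with HTSeq and normalized them with DESeq2, per the labels and the study's methods. Tool versions, and the handling of reads that match several precursor genes, are not given in the sources used here. The deposited values are a normalized signal, the count divided by the size factor of the library, in 1 table of 372 miRNAs per stage. Division by the lowest value above 0 of a library gave whole numbers for 100% of its rows (within 4.02e-07), and that value was taken as 1 read (7.72 and 0.130 normalized counts in NCC and non-NCC at 16 hpf, 11.4 and 0.0877 at 28 hpf).

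From the recovered reads, Clopper-Pearson intervals (95%), two-sided exact binomial tests against the share set by the scaling, exact conditional intervals and tests, and Benjamini-Hochberg adjustment over all miRNAs of the comparison were computed with scipy 1.17.1, pandas 2.3.3 and numpy 2.4.6 under Python 3.11.15 (figures: matplotlib 3.10.9). TMM factors came from edgeR 4.0.16 in R 4.3.3. The code was tested on simulated data. The alternatives were other scalings, 0.5 reads added, reads divided by the number of precursor genes, filters at 10 reads, a 4-fold threshold, miR-430 left out of totals, and identical rows counted once. Precursor genes were counted by symbol, since no mature sequences were used here. The read counts of miR-181a-5p are not multiples of 5 in 3 of the 4 libraries, so that its reads were not all counted at each of its 5 genes. In 28-hpf NCC, the count of 515 is such a multiple. The read counts of miR-181b-5p are multiples of 3, its number of genes, in both libraries of 28 hpf and in neither of 16 hpf. Whether its 28-hpf reads were counted at each gene could therefore not be told from these counts. With reads divided by precursor genes, the 28-hpf interval of miR-181b-5p relative to miR-181a-5p widened to 1.02 to 2.26. That of the 28-hpf ratio of miR-181a-5p widened to 0.596 to 0.886. The named miRNAs are the 4 members, all other rows named miR-181, the rows at the median ratio, the 3 nearest in pattern, and miRNAs of other tissues. The members, lists and tests were chosen with earlier results of these data known.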

Additional observations from a re-analysis of the deposited data

Results flagged for a closer look

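The NCC to non-NCC ratio differed between 16 and 28 hpf, by a test of the difference itself, for 3 of the 4 members on the deposited scale (two-sided exact conditional test), where 14.8% of the 189 miRNAs tested were called. The factor from 16 to 28 hpf was 0.730 for miR-181a-5p (adjusted p = 1.56e-11, exact conditional test), 0.747 for miR-181b-5p (adjusted p = 0.0142, exact conditional test) and 0.0596 for miR-181c-5p (adjusted p = 7.80e-05, exact conditional test). With library totals, the factors of miR-181a-5p and miR-181b-5p were 0.945 and 0.966 (adjusted p = 1 for both, exact conditional test). With TMM factors they were 1.14 (adjusted p = 0.0424, exact conditional test) and 1.16 (adjusted p = 0.664, exact conditional test), in the opposite direction. The call of miR-181c-5p was kept under both scalings and rests on 1 NCC read at 28 hpf. The tests compare single libraries, take the size factors as known and leave out their error, and the spread between sorts was not measured. On the deposited scale, the 16-hpf ratio of miR-181a-5p is 1 by the scale itself. The 28-hpf scale rests on a median at miR-25-3p, with 19 NCC reads and a ratio interval of 0.601 to 1.56.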

How the results depend on the processing

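At 16 hpf, the ratio of miR-181a-5p passed the exact binomial test with totals without miR-430 (1.03), TMM factors (0.855) and the median over miRNAs with 10 reads (0.918). At 28 hpf, it was 0.949 with library totals and 0.971 with TMM factors and no longer passed. It turned to 1.16 with totals without miR-430 and to 1.05 with the median over miRNAs with 10 reads. miR-181b-5p at 28 hpf came to pass with library totals (1.46), totals without miR-430 (1.79), TMM factors (1.49) and that median (1.61). The change of ratio between stages with library totals, totals without miR-430 and TMM factors was 0.945, 1.12 and 1.14 for miR-181a-5p and 0.966, 1.15 and 1.16 for miR-181b-5p. Why the scalings differ was not tested. Of the 60 alternatives tried on member ratios, 49 left direction and call as they were. Every change came from another scaling of the libraries. The remaining alternatives were reads added, division by precursor genes and a filter at 10 reads. Division and the filter cannot move a ratio beyond rounding, and added reads kept the main p-value. These therefore say little on robustness. miR-181a-3p at 28 hpf, with no NCC read, has the same ratio in any scaling. No scaling can move the balance between rows. All 18 alternatives on it were reads added or that division, and kept its direction. Summed shares without miR-430 were 5.26%, 4.73%, 35.5% and 28.9% (NCC and non-NCC at 16, then at 28 hpf). Over 2-fold at 16 hpf were 60 miRNAs in NCC (25 at 4-fold, 30 with 10 reads in both libraries) and 57 in non-NCC (26 and 24). At 28 hpf these were 12 in NCC (2 with 10 reads) and 17 in non-NCC (4 at 4-fold, 7 with 10 reads, 6 with totals without miR-430, 10 with TMM factors). The 6502 reads of NCC at 28 hpf limit each value of that stage. No paired analysis was possible because each group has 1 library.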
